A study of Drosophila melanogaster with 22 samples.

Results

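The proteasome subunit genes of Drosophila melanogaster were examined across 22 RNA-seq libraries of anterior ovarioles. Members were taken by symbol, as every gene of the deposited annotation whose name begins with Prosalpha, Prosbeta, Rpn or Rpt followed, for the last 2, by a digit. This gave 47 of 17478 annotated genes. Of these, 32 are the general subunits, which fall into 14 of the core particle (7 alpha and 7 beta) and 18 of the regulatory particle (12 Rpn and 6 Rpt). The other 15 carry symbols of testis-type or related paralogs, with 10 of the core and 5 of the regulatory particle. The rule itself uses no measured value.

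All flies were w1118 virgin females, kept at 25°C under constant light, and the labels name no other allele or treatment. The tissue was the front end of the ovariole, with the germarium and the young egg chambers, and 30 to 50 ovarioles were pooled in a sample. Flies of days 5, 6, 7 and 8 after eclosion had 3 libraries each, and their egg chambers were taken up to stage 7. For days 1, 2, 3 and 4 there were 2, 3, 3 and 2 libraries, and egg chambers were taken up to stage 8. The counts of the 12 older and the 10 younger libraries were also deposited as separate sets. The older and younger libraries therefore differ in age, in the last stage dissected and in submission, and these cannot be told apart. The submitters describe the replicates as independent biological samples.

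The proteasome is the protease of the cytosol and nucleus that degrades proteins tagged with ubiquitin. Its core particle is a barrel of alpha rings, which gate the entrance, and beta rings, which hold the proteolytic sites on the subunits Prosbeta1, Prosbeta2 and Prosbeta5. The regulatory particle caps the barrel. Its base contains the Rpt ATPases, which unfold the substrate, and the large scaffolds Rpn1 and Rpn2, while its lid contains Rpn11, the enzyme that removes ubiquitin as the substrate enters. Rpn10 and Rpn13 are ubiquitin receptors. In the fly, several subunits have a second gene that is known from the male germline.

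Counts assigned to genes ran between 2975582 and 4634327 per library on days 5 to 8, and between 1146915 and 9781870 on days 1 to 4. Synthetic spike-in RNAs numbered only 19 to 52 counts in 3 libraries of the younger flies (replicate 1 of day 2, replicate 2 of day 3 and replicate 2 of day 4), against 25577 to 910875 in the remaining 7 younger libraries; these 3 are called the few-spike libraries. In these bulk libraries, fewer cells of a type and less RNA per cell cannot be told apart. Levels of a gene are given as counts scaled to 1000000 gene counts after TMM adjustment (CPM). Germline markers summed to 4427 to 5957 CPM on days 5 to 8 and to 4174 to 4908 CPM on days 1 to 4. Follicle cell markers summed to 498 to 659 CPM and 321 to 621 CPM. These sums came mostly from osk and orb, and from tj. In the follicle cell list, hh averaged only 1.42 CPM on days 5 to 8 and 1.60 CPM on days 1 to 4. The summed level of 6 late eggshell genes was 3.77 to 31.6 CPM on days 5 to 8, against 101 to 1605 CPM on days 1 to 4.

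The 47 members took 0.306 to 0.503% of gene counts in the libraries of days 5 to 8, with a median of 0.363%. In those of days 1 to 4 they took 0.316 to 0.438%, with a median of 0.390%. Nearly all of this came from 31 general subunits, which together held 284129 counts. Each of them had at least 5125 counts over the 22 libraries (Prosalpha5, an alpha-ring subunit) and at most 24576 (Rpn2). The lowest count of any of the 31 in a single library was 56, for the lid subunit Rpn12. All 31 passed the filter on low counts, as did 1 of the 15 testis-type genes, Rpt3R, so that 32 of the 47 members were tested. The remaining general subunit, Prosalpha1, had almost no counts and is described with the paralogs.

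Levels that can be compared between genes were calculated per kilobase of exon and scaled to 1000000 per library (TPM), and are given as mean ± SD over the 22 libraries. Among the 13 tested core subunits, Prosbeta6 had the highest level, 270 ± 27.9 TPM, and Prosalpha5 the lowest, 139 ± 23.4 TPM. The proteolytic subunits Prosbeta5, Prosbeta2 and Prosbeta1 stood at 225 ± 23.2, 217 ± 33.3 and 171 ± 25.7 TPM. Levels of these core subunits thus spanned 1.94-fold around a median of 194 TPM. The alpha subunit Prosalpha6 was second of all subunits at 262 ± 34.2 TPM, within 1 SD of Prosbeta6, and Prosbeta5 came next, more than 1 SD lower.

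The 18 regulatory subunits spanned 1.74-fold around a median of 142 TPM. Rpn5, a structural subunit of the lid, was highest at 193 ± 33.5 TPM, next to Rpn2 at 192 ± 48.2 and the deubiquitinase Rpn11 at 185 ± 30.7 TPM. The ATPase Rpt5 was lowest at 111 ± 31.5 TPM. The 6 ATPases ran between 111 and 157 TPM with a median of 131 TPM, and the 12 Rpn subunits had a median of 154 TPM. The ubiquitin receptors Rpn13 and Rpn10 had nearly the same level, 133 ± 24.7 and 132 ± 22.1 TPM. Neighbours in the order of the 18 regulatory subunits differed by less than their spread over libraries.

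Across all 31, the highest mean was 2.44 times the lowest. Over all 8024 tested genes, the median level was 31.5 TPM, and every one of the 31 lay above it. The coefficient of variation over the 22 libraries lay between 10.3% (Prosbeta5) and 28.5% (Rpt5) with a median of 17.3%, beside a median of 24.0% over all tested genes. The members lie on every large chromosome arm, with 4 general genes on 2L, 10 on 2R, 5 on 3L, 9 on 3R and 4 on X. In the deposited FlyBase release 6 annotation, 12 of the 31 overlap an exon of a gene on the opposite strand and 0 overlap one on their own strand.

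Per kilobase, the mean of the 13 tested core subunits stood above that of the 18 regulatory subunits in 22 of 22 libraries. Single subunits of the particles overlapped: Rpn5, at 193 TPM over all libraries, lay above Prosalpha5, at 139 TPM. The mean level of a core subunit was 195 ± 23.5 TPM on days 5 to 8 (SD, n = 12; range 170 to 252) and 202 ± 20.6 TPM on days 1 to 4 (SD, n = 10; range 165 to 228). The mean level of a regulatory subunit was 146 ± 26.8 TPM on days 5 to 8 (range 115 to 205) and 148 ± 17.5 TPM on days 1 to 4 (range 127 to 172). The ranges of the older and younger libraries overlap for both particles.

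**Figure D1:**
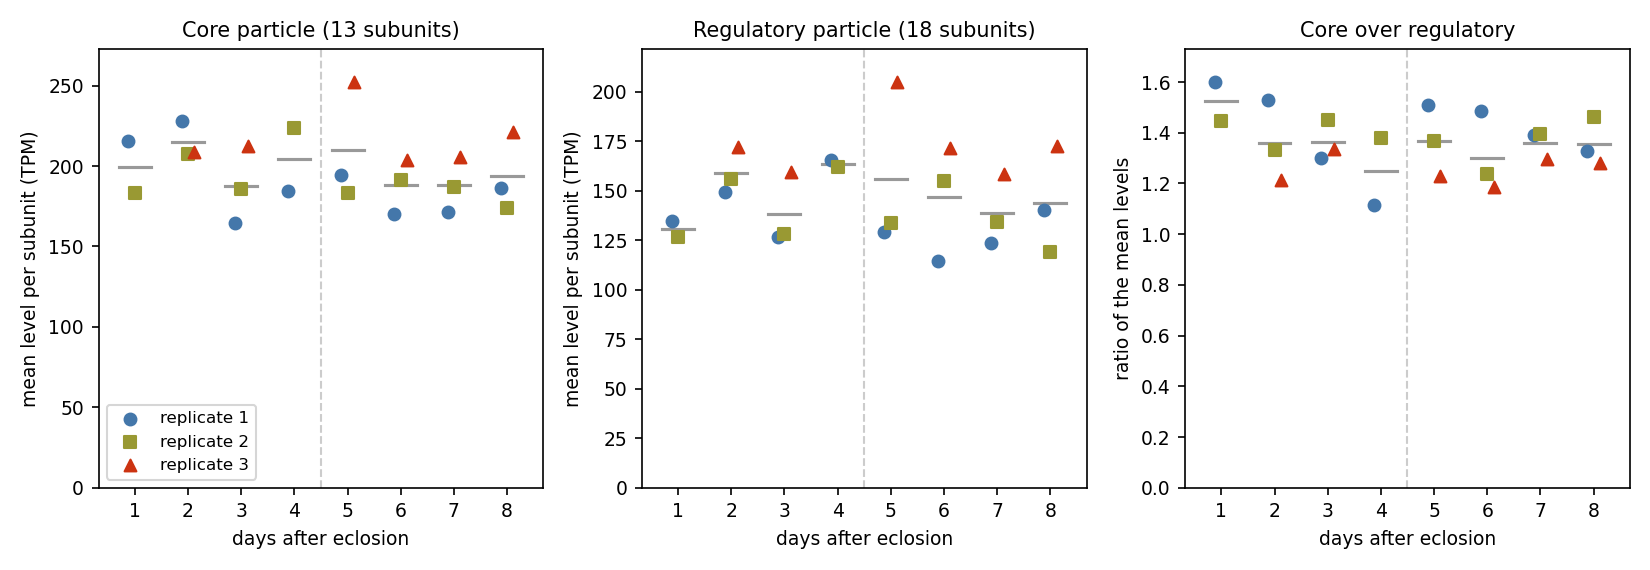
Mean level per core subunit, mean level per regulatory subunit (both in TPM) and the ratio of the first to the second, by day after eclosion. Each point is a library, marked by replicate number, the grey bar is the mean of the day, and the dashed line separates the 2 dissection series; both particles have their highest library at day 5 replicate 3, where the core stood at 252 TPM and the regulatory particle at 205 TPM.

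The ratio of core to regulatory level was 1.35 ± 0.105 on days 5 to 8 (range 1.19 to 1.51) and 1.37 ± 0.144 on days 1 to 4 (range 1.12 to 1.60). Day means of the ratio, from day 1 to day 8, were 1.52, 1.36, 1.36, 1.25, 1.37, 1.30, 1.36 and 1.36. Of the 2 libraries of day 1, the first had a ratio of 1.60, above the range of 1.12 to 1.53 of days 2 to 8, and the second had 1.45, within it. Within the core, alpha stood at 0.888 ± 0.053 times the beta level on days 5 to 8 and at 0.944 ± 0.052 times on days 1 to 4. Within the regulatory particle, the ATPases stood at 0.856 ± 0.034 times the Rpn level on days 5 to 8 and at 0.914 ± 0.057 times on days 1 to 4. These ratios are descriptions and were not tested.

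Summed over the 31 subunits, the day means from day 1 to day 8 were 3287, 3974, 3612, 3824, 4223, 3772, 3707 and 3791 CPM. Single libraries ran between 3121 and 5302 CPM on days 5 to 8 and between 3089 and 4131 CPM on days 1 to 4. The older and younger libraries overlap.

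**Figure D2:**
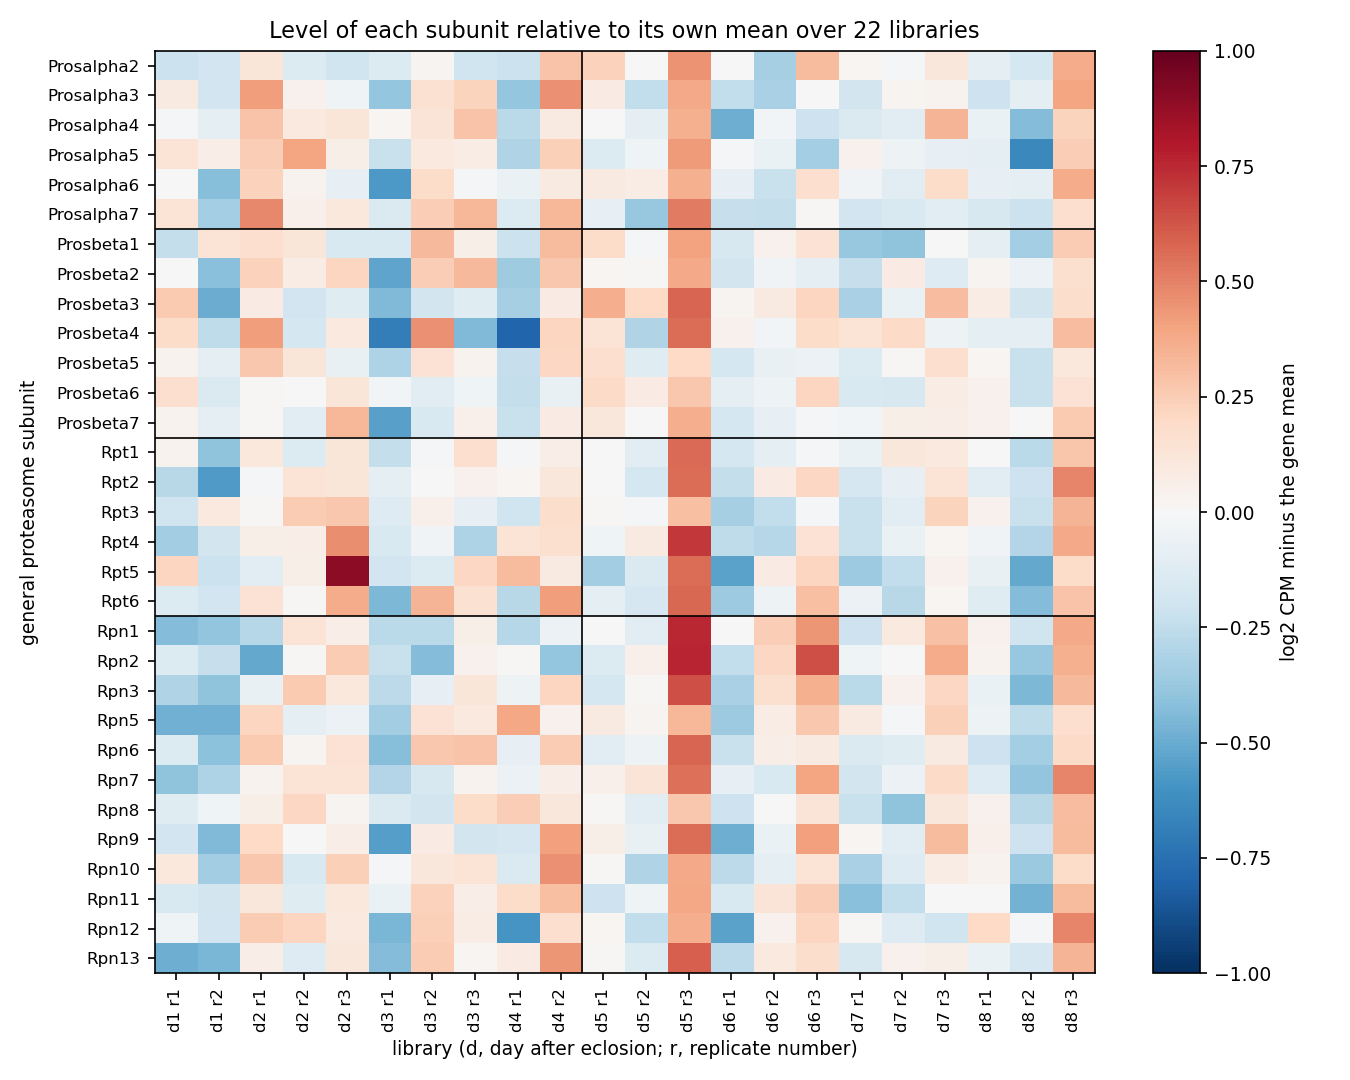
Level of each of 31 general subunits (rows, grouped by particle) in each of 22 libraries (columns, by day and replicate), as log2 CPM minus the mean of that gene over all libraries. The column of day 5 replicate 3 lies above the gene mean for every subunit and holds the darkest run of cells, and Rpt5 stands out in day 2 replicate 3, at 168 CPM.

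One subunit, Rpn1, passed the test between the older and the younger flies. Rpn1 (FBgn0028695, 3L:19915051-19918160, plus strand) is the large scaffold of the base to which shuttle proteins deliver ubiquitinated substrates. Its level on days 5 to 8 was 216 CPM in the lowest library, 262 at the median and 420 in the highest (281 ± 59.5, mean ± SD, n = 12). On days 1 to 4 the lowest, median and highest libraries had 185, 206 and 274 CPM (223 ± 32.5, n = 10). The groups overlap, and 5 of the 12 older libraries lay above every younger one. These were the replicate 3 libraries of days 5 to 8 and day 6 replicate 2. Rpn1 was higher by 0.36 ± 0.11 on the log2 scale (fitted change ± SE, edgeR quasi-likelihood test, Benjamini-Hochberg adjusted p = 0.0494 over all tested genes).

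This was 1 of 32 members tested, where 8.82% of all 8024 tested genes were called, 4.06% higher and 4.76% lower. The share of called members was not tested against that of all genes, and the count of 1 changed with the setting, as given below. At an unadjusted p under 0.05 there were 4 of 32 members, beside 23.7% of all genes. The 31 general subunits had a median change of 0.05 (range −0.19 to 0.36), with 17 above and 14 below 0. Over all tested genes the median was −0.02, with quartiles of −0.20 and 0.15. By role, the median change was −0.09 for the 6 alpha, 0.07 for the 7 beta, 0.01 for the 6 Rpt and 0.11 for the 12 Rpn subunits.

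The Rpn1 call sits at its threshold. It was lost on removal of any 1 of 15 of the 22 libraries, with log2 changes of 0.28 to 0.40 and adjusted p of 0.0333 to 0.107 over all single removals. With the 3 few-spike libraries left out, its adjusted p was 0.0634 (log2 0.35). When the replicate 3 libraries of days 5 to 8 were left out, which was decided after seeing the data, its change was 0.18 with an adjusted p of 0.354, and 0 members were called.

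The other scaffold of the base, Rpn2, had the next largest change. In the older libraries its lowest, median and highest levels were 255, 342 and 563 CPM (374 ± 93.9), against 233, 293 and 395 CPM in the younger ones (301 ± 50.9). Its log2 difference of 0.32 ± 0.14 did not pass (adjusted p = 0.147), and 4 of 12 older libraries lay above the highest younger one. All of those were the replicate 3 libraries of days 5 to 8. The beta-ring subunit Prosbeta3 averaged 85.3 ± 14.6 CPM on days 5 to 8 and 70.8 ± 11.9 CPM on days 1 to 4, a log2 difference of 0.25 ± 0.10 (adjusted p = 0.145). At the low end, Rpt5 averaged 86.9 ± 20.7 CPM on days 5 to 8 and 101 ± 26.7 CPM on days 1 to 4 (log2 −0.19 ± 0.14, adjusted p = 0.450). Prosalpha7, an alpha-ring subunit, averaged 87.0 ± 16.1 CPM on days 5 to 8 and 99.6 ± 17.2 CPM on days 1 to 4 (log2 −0.18 ± 0.11, adjusted p = 0.332). Across the 31 tested general subunits, the change correlated with log2 exon length at r = 0.43. Rpn2 and Rpn1 have the longest exon sequence of these, at 3412 and 3041 bases. The part of length in their change was not tested.

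**Figure D3:**
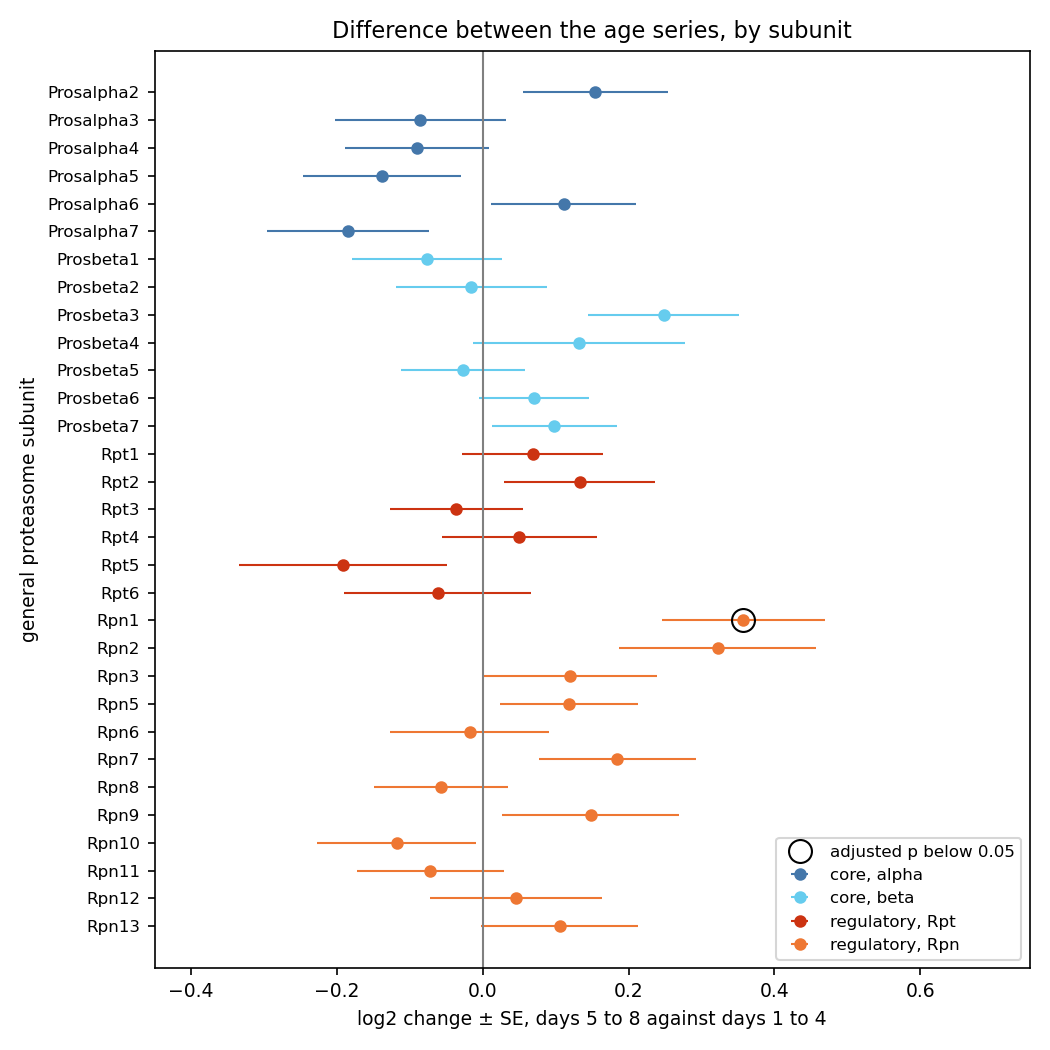
Fitted log2 change of each general subunit, days 5 to 8 over days 1 to 4, with its standard error, grouped by particle. Rpn1, circled, is the only one of the 31 called, at 0.36 ± 0.11, and the rest lie between −0.19 and 0.32.

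Markers of the dissected tissue moved with this comparison. All 6 late eggshell genes were called lower on days 5 to 8, as were 5 of 5 muscle genes (summed level 97.3 to 340 CPM on days 5 to 8, against 193 to 1282 CPM on days 1 to 4), 3 of 3 yolk and fat body genes (37.5 to 403 against 162 to 1135 CPM) and 2 of 2 haemocyte genes (1.43 to 37.4 against 5.35 to 43.1 CPM). Of the 6 genes in the germline list, osk was called higher and nos and vas lower. Of the 4 genes in the follicle cell list, tj was called higher. The part of these markers in the Rpn1 difference was not tested.

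Within the younger series, 0 of 32 members were called for any difference among days 1 to 4, where 0.0249% of all tested genes were. At an unadjusted p under 0.05 there was 1 member, Rpn5 (adjusted p = 0.556), beside 8.10% of genes. Rpn13 came next, with an adjusted p of 0.613.

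Day 4 was also set against day 1. Again 0 members were called (0.0374% of all genes), with 2 at an unadjusted p under 0.05 beside 11.5% of genes. Those 2 were the lid subunit Rpn5 and the ubiquitin receptor Rpn13. Rpn5 had 193 and 245 CPM on day 4, against 134 and 135 CPM on day 1 (log2 0.70 ± 0.22, adjusted p = 0.329). Rpn13 had 120 and 155 CPM on day 4, against 81.1 and 83.2 CPM on day 1 (log2 0.75 ± 0.25, adjusted p = 0.339). The fitted difference was above 0 for 17 of 18 regulatory subunits, with a median of 0.34, and for 7 of 13 core subunits, with a median of 0.04. Over the 31 the median was 0.22, beside 0.01 over all tested genes. It was 0.03 without day 4 replicate 2, which is a few-spike library, 0.40 without day 4 replicate 1 and 0.36 without day 1 replicate 1. Tissue markers separated the same libraries: summed muscle genes stood at 194 and 635 CPM on day 4, against 1150 and 1282 CPM on day 1, and haemocyte genes at 9.06 and 13.7 CPM, against 38.2 and 43.1 CPM. Their part in the subunits' difference was not tested.

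In the older series, 0 of 32 members were called for any difference among days 5 to 8 (0.0125% of all genes), and 0 had an unadjusted p under 0.05, beside 3.09% of genes. Prosbeta1 and Prosbeta3 had the smallest p, each with an adjusted p of 1. Day 8 against day 5 called 0 members, as it called 0% of all genes, with 0 members at an unadjusted p under 0.05 beside 2.92% of genes. The fitted difference was below 0 for 30 of 31 subunits, with a median of −0.16. This rested on single libraries: the median was 0.07 without day 5 replicate 3 and −0.03 without day 8 replicate 2, and it was −0.28 without day 5 replicate 2 and −0.31 without day 8 replicate 3. Prosbeta3 had the smallest p at −0.36 ± 0.19, followed by the lid subunit Rpn6 at −0.28 ± 0.20 (adjusted p = 1 for each). Rpn6 stood at −0.02 without day 5 replicate 3 and at −0.45 without day 8 replicate 3.

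The day 5 to day 8 change was then set against the day 1 to day 4 change in 1 test of their difference. Here 0 members were called (0% of all genes), with 3 at an unadjusted p under 0.05 beside 10.1% of genes. The difference was below 0 for 29 of 31 subunits, with a median of −0.36. With single libraries left out the median ran between −0.57 (without day 4 replicate 1) and −0.18 (without day 5 replicate 3), and it was −0.55 without day 1 replicate 1 and −0.20 without day 4 replicate 2. Rpn5 and Rpn13 had the smallest p, at −0.89 ± 0.28 (adjusted p = 0.387) and −0.89 ± 0.32 (adjusted p = 0.418). DESeq2 also called 0 members in each of these 5 comparisons within and between the series.

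The subunits differed together between libraries of the same day. On 6 of the 6 days with 3 libraries, replicate 3 had the highest summed level. On day 5 it stood at 5302 CPM, against 3768 and 3599 CPM in replicates 1 and 2. On day 6 it stood at 4344 CPM, against 3234 and 3738 CPM. On day 7 replicate 3 had 4124 CPM, against 3405 and 3591 CPM, and on day 8 it had 4588 CPM, against 3663 and 3121 CPM. No replicate 1 or 2 library of days 5 to 8 reached the lowest replicate 3 library. This grouping was looked at after the values were seen, so it is given as a description without a test.

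Of the 31 general subunits, 25 had replicate 3 as the highest library on each of days 5 to 8, beside 5.17% of all tested genes. These were 9 of 13 core and 16 of 18 regulatory subunits. The exceptions were Prosalpha4, Prosalpha5, Prosbeta2, Prosbeta4, Rpn12 and Rpt1. By contrast, replicate 1 was highest on each day for 0 subunits and 3.76% of genes, and replicate 2 for 0 subunits and 1.17% of genes. With counts scaled by gene totals alone the number was 20, with DESeq2 size factors 23, and with any 1 day left out 25 to 28.

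In log2 CPM, the subunits' median of replicate 3 minus the mean of replicates 1 and 2 was 0.51, 0.28, 0.23 and 0.46 for days 5, 6, 7 and 8. It was positive for 31, 30, 27 and 31 of the 31 subunits on these days. The median over all tested genes was 0.00 on each day. Regulatory subunits had medians of 0.63, 0.36, 0.30 and 0.46 on days 5, 6, 7 and 8, and core subunits 0.33, 0.18, 0.11 and 0.41.

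**Figure D4:**
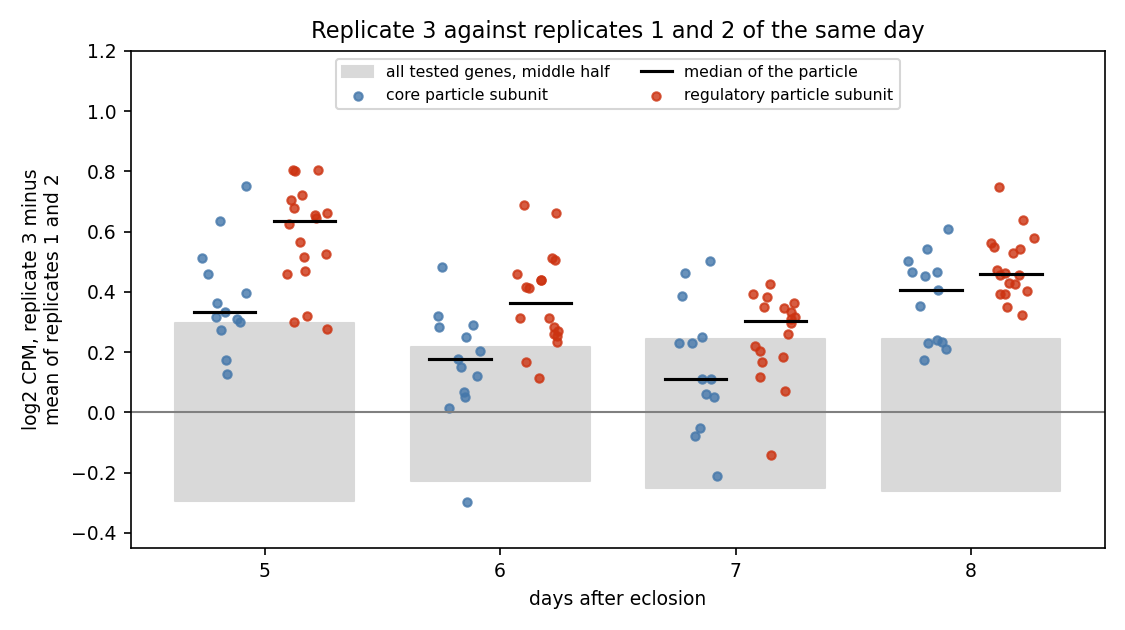
Replicate 3 minus the mean of replicates 1 and 2, in log2 CPM, on each of days 5 to 8. Each point is a subunit, coloured by particle, each black line is the median of a particle and the grey bar spans the quartiles of all tested genes; the regulatory medians of 0.63, 0.36, 0.30 and 0.46 lie above the core medians of 0.33, 0.18, 0.11 and 0.41.

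Averaged over the 4 days, the single subunits ran between 0.12 (Prosbeta2) and 0.60 (Rpn2), with Rpt5 at 0.52 and the lid subunits Rpn3 and Rpn7 at 0.51 each. Rpn2 had 425 to 563 CPM in the 4 replicate 3 libraries, against 255 to 383 CPM in the other 8. Rpn1 had 306 to 420 CPM, against 216 to 295 CPM. These ranges do not overlap for either gene, but the share of all tested genes that separate in this way is not given here. The ratio of core to regulatory level was lowest in replicate 3 on 4 of 4 days, at 1.19 to 1.30, against 1.24 to 1.51 in replicates 1 and 2.

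The depth and marker values of these libraries are given beside this pattern, and their part in it was not tested. Replicate 3 libraries held 3188900 to 4634327 gene counts, and the other 8 held 2975582 to 4180175, so that 3 of the 4 lay within the range of the others. Across the 31 subunits, the difference correlated with log2 exon length at r = 0.65, beside −0.03 across all tested genes. Genes are not independent replicates and share their libraries. Exon length was 815 to 1215 bases for core and 995 to 3412 bases for regulatory subunits, so length and particle were not told apart. Summed muscle markers were 153 to 256 CPM in replicate 3 and 97.3 to 340 CPM in the others. Germline markers were 4450 to 5351 and 4427 to 5957 CPM, follicle cell markers 498 to 649 and 506 to 659 CPM, eggshell genes 4.18 to 31.6 and 3.77 to 26.9 CPM, and yolk genes 93.7 to 308 and 37.5 to 403 CPM. None of these summed marker lists set replicate 3 apart from the other libraries. Within the germline list, nos stood at 39.8 to 65.8 CPM in replicate 3 and at 65.1 to 82.6 CPM in the others. In the same list bam leaned the other way, at 17.1 to 33.8 and 12.2 to 23.0 CPM. The haemocyte gene Pxn stood at 2.75 to 9.82 and 1.43 to 35.3 CPM. The labels do not say what the replicate 3 libraries shared in handling.

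The 31 subunits also varied together over all libraries. The median Pearson r over their 465 pairs, in log2 CPM over 22 libraries, was 0.57, and 464 pairs were positive. Pairs within the regulatory particle had a median of 0.65, pairs within the core 0.57 and pairs across the particles 0.52. On days 5 to 8 the regulatory pairs had a median of 0.83 and the core pairs 0.64, while on days 1 to 4 the order was reversed, with 0.51 for regulatory and 0.59 for core pairs. In the 12 libraries of days 5 to 8 the median was 0.74 with 465 positive pairs, and in the 10 of days 1 to 4 it was 0.47 with 417. After the mean of each day was subtracted, the medians were 0.81 on days 5 to 8 and 0.46 on days 1 to 4, where regulatory pairs had 0.34 and core pairs 0.67. Over all pairs of tested genes the median was 0.00. Rpn6 and Rpt6 followed the mean of the other subunits most closely, at r = 0.90 each, and Rpn2 and Prosalpha5 least, at 0.54 and 0.56. For Rpn2 this value was 0.89 on days 5 to 8 and −0.11 on days 1 to 4. These correlations are descriptions, since the points share libraries and scaling. Those of days 5 to 8 include the replicate 3 libraries described above, so they are not a separate result. Those of days 1 to 4 likewise include the few-spike libraries, which are described next.

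The 3 few-spike libraries gave a further contrast among the younger flies. Their summed subunit level was 3827 to 4131 CPM, against 3089 to 4116 CPM in the 7 remaining younger ones. The median difference of the 31 subunits was 0.24 on the log2 scale, with 26 positive, beside 0.06 over all tested genes. Summed follicle cell markers stood at 321 to 425 CPM in the few-spike libraries, against 429 to 621 CPM in the remaining 7, without overlap. The ubiquitin list stood at 6679 to 8255 against 4629 to 5486 CPM and the COP9 list at 469 to 506 against 331 to 434 CPM. The activator list stood at 1326 to 1553 against 984 to 1289 CPM and the transcription regulators at 781 to 816 against 909 to 1059 CPM. None of these lists overlapped. The p97 list did, at 634 to 740 CPM in the few-spike libraries against 650 to 855 CPM. In the ubiquitin list, the ribosomal protein genes RpS27A and RpL40 spread most over days 1 to 4 (1918 ± 553 and 1539 ± 496 CPM, mean ± SD). The part of these markers and lists in the subunits' difference was not tested. Prosbeta4, a beta-ring subunit, was highest relative to the others, at 95.8 to 114 CPM in the few-spike libraries, against 47.6 to 94.0 CPM, a difference of 0.66. Rpn2 was lowest, at 233 to 254 CPM against 282 to 395 CPM, a difference of −0.40.

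Neither Prosbeta4 nor Rpn2 overlapped between these libraries. In all, 6 subunits lay above every other younger library (Prosbeta4, Prosbeta5, Prosbeta1, Prosalpha6, Prosalpha2 and Rpn9), beside 8.23% of all tested genes. Rpn2 lay below every other one, beside 10.8% of genes. Across the subunits the difference correlated with log2 exon length at r = −0.56, beside −0.29 over all tested genes. With these 3 libraries left out, Prosbeta4 became the 1 member called between the older and younger flies, at 0.46 (adjusted p = 0.0164). With only these 3 kept for the younger flies, Rpn2 was the 1 called, at 0.63 (adjusted p = 0.0399). These 3 libraries also held the most gene counts of the younger flies, 3648865 to 9781870 against 1146915 to 2573634. Insertion features took 2.64 to 4.11% of their counts, against 1.51 to 2.35%, also without overlap. Spike-in counts, depth and insertion share thus moved together with the values of both genes. They cannot be told apart here, and their part was not tested.

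The testis-type paralogs were close to absent. The 15 genes held 149 counts in all 22 libraries together, 46 on days 5 to 8 and 103 on days 1 to 4, out of 73925269 gene counts. Their general namesakes held between 5283 (Rpn12) and 11196 (Prosalpha6) counts each. For 5 paralogs, Prosalpha3T, Prosbeta2R1, Prosbeta5R2, Rpn12R and Rpt6R, the count was 0. A count of 0 over all libraries allows a level of up to 0.0406 CPM (3 counts of the total), and a 0 in a single library allows 0.307 to 2.62 CPM depending on its depth; both limits cover counting error only. A further 6 had 1 to 3 counts in total, namely Prosalpha4T1, Prosalpha4T2, Prosalpha6T, Prosbeta4R1, Prosbeta5R1 and Rpt4R.

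The last 4 paralogs had more. Rpt3R (FBgn0037742, 3R:9754735-9756510, minus strand), a paralog of the ATPase gene Rpt3, had 65 counts in 15 libraries. Day 2 replicate 1, the deepest library and 1 of the few-spike ones, held 28 of them. Its counts were 15 on days 5 to 8 and 50 on days 1 to 4, a log2 difference of −1.69 ± 0.78 that did not pass (adjusted p = 0.191) and that was −0.36 without the few-spike libraries. An exon of CG8412 on the opposite strand overlaps Rpt3R.

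Rpn13R (FBgn0029745, X:5131898-5132985, plus strand), a paralog of the receptor gene Rpn13, had 47 counts in 14 libraries, 18 on days 5 to 8 and 29 on days 1 to 4. The library with the most, day 7 replicate 3, had 8. It did not pass the filter. Without the filter it was called lower on days 5 to 8 (log2 −2.83, adjusted p = 0.0290), a value that rests on these few counts. Prosbeta2R2 (FBgn0037296, 3R:5217751-5219528, minus strand), a paralog of the proteolytic Prosbeta2, had 20 counts in 9 libraries, with at most 6, in day 1 replicate 1. Prosbeta4R2 had 4 counts and shares exon sequence on its own strand with the odorant receptor gene Or23a, so its counts cannot be assigned with certainty. As a reference for male transcripts, 10 testis marker genes held 890 counts, of which 821 belonged to mia, a basal transcription factor subunit known from spermatocytes; each of the other 9 had 1 to 21.

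**Figure D5:**
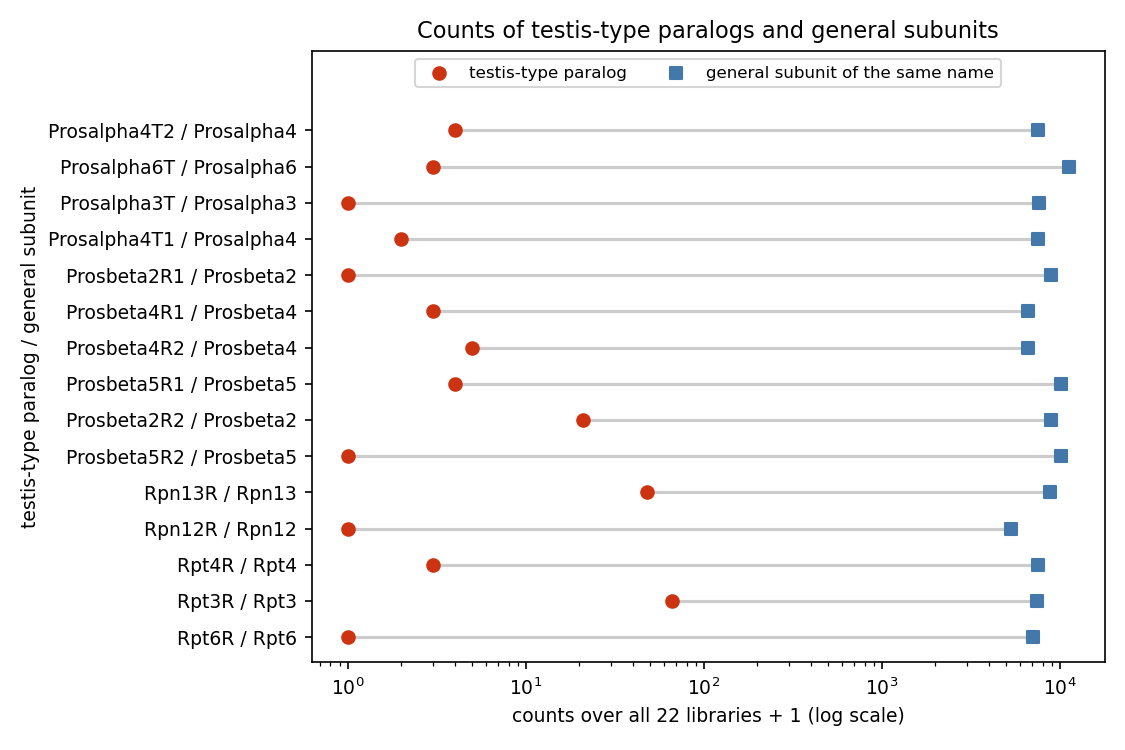
Total counts plus 1 over 22 libraries, on a log axis, of each testis-type paralog beside its general namesake. Paralogs lie at 0 to 65 counts and general genes at 5283 to 11196 counts.

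One general subunit, Prosalpha1, was near the level of the paralogs. Prosalpha1 (FBgn0263121, 2R:7827303-7828678, minus strand) encodes an alpha-ring subunit. It had 65 counts in 16 libraries, 27 on days 5 to 8 and 38 on days 1 to 4, with at most 18, in day 2 replicate 1, and a mean of 1.48 TPM, against 139 TPM for the next lowest core subunit. A neighbouring gene, CG30382 (2R:7830413-7831771, minus strand), named Prosalpha1R in the newer reference annotation, lies 1734 bases upstream of it on the same strand and had 2 counts. Both genes have exons of 580, 177 and 100 bases, with coding parts of 479, 177 and 76 bases. The sources do not say how reads matching both copies were counted, so the value of Prosalpha1 is uncertain and was not tested.

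Genes that act with the proteasome were followed in lists. Of 10 tested activators, assembly chaperones and shuttle factors, 0 were called between days 5 to 8 and days 1 to 4, where 8.82% of all genes were. The most abundant was REG, the nuclear activator of the core, at 278 TPM, with a CPM of 281 ± 29.5 on days 5 to 8 and 248 ± 66.8 on days 1 to 4. Closest to the threshold were the regulator PI31 (log2 −0.31 ± 0.11, adjusted p = 0.0745) and the shuttle factor Rad23 (0.28 ± 0.11, adjusted p = 0.125). Of 7 transcription regulators, 1 was called: ewg, a DNA-binding factor, averaged 208 ± 27.4 CPM on days 5 to 8 and 157 ± 28.9 CPM on days 1 to 4 (log2 0.42 ± 0.10, adjusted p = 0.0123). The most abundant of that list was maf-S, the partner of the stress factor cnc, at 88.4 TPM.

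In the ubiquitin list, 0 of 11 tested genes were called, and RpS27A, which encodes ubiquitin fused to a ribosomal protein, was the most abundant at 6625 TPM. The p97 segregase list, whose products extract ubiquitinated proteins from complexes and membranes, had 0 of 4 called, and TER94, the ATPase itself, was highest at 306 TPM. The COP9 signalosome, a relative of the lid, had 0 of 8 called, with CSN4 highest at 94.6 TPM.

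The replicate order of days 5 to 8 was also read in these lists: replicate 3 was highest on each of the 4 days for 1 of 4 tested p97 genes and 1 of 11 ubiquitin genes, and for 0 of 10, 0 of 7 and 0 of 8 genes of the activator, transcription regulator and COP9 lists, beside 5.17% of all tested genes. The p97 gene was TER94, at 610 to 874 CPM in replicate 3 and 449 to 591 CPM in replicates 1 and 2. The ubiquitin gene was the conjugating enzyme eff, at 743 to 816 CPM in replicate 3 and 577 to 720 CPM in the others. The summed level of the p97 list was 826 to 1120 CPM in replicate 3 and 630 to 774 CPM in the others, without overlap. That of the activator list was 1459 to 1679 CPM in replicate 3 and 1120 to 1474 CPM in the others, which overlap, as did the ubiquitin list (5854 to 6255 and 5486 to 6645 CPM), the COP9 list (413 to 438 and 388 to 465 CPM) and the transcription regulators (940 to 1017 and 975 to 1099 CPM).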

How the data were processed

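Single-end reads of 76 nt from stranded polyA libraries, made from 200 ng of total RNA with spike-in controls, were counted by the authors with HTSeq 0.6.1p1 after CASAVA 1.8.2, HISAT2 2.0.1 and SAMtools 0.1.2, per the submitters' processing notes. The deposited values are raw counts per feature on the FlyBase release 6 annotation, for 19146 features, of which 17478 are genes, 1572 insertions and 96 spike-in transcripts. The strand and multi-mapping settings are not given in the sources used here. Insertions and spike-ins stayed out of library sizes and tests. The deposited tables of the series and of single samples differed in 0 values, and 0 columns were left out.

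Counts were tested with edgeR 4.0.16 (R 4.3.3, limma 3.58.1): a filter by day on low counts (default minimum of 10), which kept 8024 genes, TMM scaling, a mean for each of 8 days (14 residual degrees of freedom), the quasi-likelihood F-test and Benjamini-Hochberg adjustment over all 8024 genes at 0.05. The days 5 to 8 against days 1 to 4 contrast weighs each day equally, while means ± SD in CPM are over libraries. TPM was computed from counts and the summed exon length of each gene. Descriptions were made with Python 3.11.15. The fit was tested on simulated data. No 2 replicates agreed within sampling noise (lowest chi-square per degree of freedom 3.74).

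The members and lists were chosen with earlier results of these data known. Any member could be named; the text names the called ones, the extremes per particle, the 2 smallest p of each further comparison, all paralogs, and called or most abundant list genes. Alternatives were DESeq2 1.42.0, its size factors, other filters, a replicate block, single libraries left out and the spike-in groups left out. In the lists, Ecm29 and the testis marker rye were not matched; CSN2 was read as alien, and Mst35Ba and Mst35Bb as ProtA and ProtB. Protein and promoter sequences were not analysed here.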

Additional observations from a re-analysis of the deposited data

Results flagged for a closer look

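Rpt5 in the libraries of days 1 to 4 held 1 library far from the rest. Day 2 replicate 3 had 168 CPM and the other 9 libraries had 78.1 to 113 CPM, so that the gap took 0.613 of the whole range. Of 33 quantities looked at in this way, 1 passed, and chance passes about 1 in 20.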

How the results depend on the processing

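The number of members called between days 5 to 8 and days 1 to 4 was 1 and depended on the setting. It was 2 with DESeq2 (Rpn1, and Rpn13R at −2.60), 0 with DESeq2 size factors (Rpn1 adjusted p = 0.0506), 3 without a filter on low counts (Rpn1, Rpn2 at 0.34 and Rpn13R), 2 with a minimum of 1 CPM in 6 libraries (Rpn1, Rpn13R), 0 without the replicate 3 libraries of days 5 to 8 (chosen after seeing the data) and 0 to 2 with single libraries left out. Without the 3 few-spike libraries it was 1, but the gene was Prosbeta4, and without the other 7 libraries of days 1 to 4 it was 1, Rpn2, while the median of the 31 general subunits was −0.09. In the other 5 comparisons 0 members were called under every alternative run. The summed ratio of core to regulatory counts, without division by length, was 0.544 on days 5 to 8 and 0.567 on days 1 to 4. The labels do not say that replicate numbers pair the libraries, and not every same-numbered pair was above 0.1. On days 5 to 8 the correlations over all genes were 0.03 to 0.26 for replicate 1, −0.07 to 0.12 for replicate 2 and 0.11 to 0.24 for replicate 3, where all 6 pairs were above 0.1, against a median of −0.06 between other numbers. On days 1 to 4 same-numbered libraries ran between −0.51 and 0.39. With the replicate block, 1 member was called, Rpn1 at 0.28 (adjusted p = 0.0423), and 685 genes in place of 708; day 4 against day 1 called 11 genes in place of 3. Depth limits the paralogs: a 0 in a library allows up to 2.62 CPM.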

Other observations

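Outside the family, the genes whose log2 CPM followed the mean of the 31 general subunits most closely over the 22 libraries were Jafrac1, a peroxiredoxin (r = 0.88), Bka (r = 0.88), Nlp, a nucleoplasmin-type chaperone (r = 0.87), the nuclear transport GTPase Ran (r = 0.87) and Usp14, the deubiquitinase that binds the regulatory particle (r = 0.87). In the 12 libraries of days 5 to 8 the closest were hoip (r = 0.95), vig2 (r = 0.94), Ran (r = 0.93) and Jafrac1 (r = 0.93). These genes were chosen after their values were seen, the points share libraries and scaling, and no test was made.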
